A study of Mus musculus with 78 samples.

Results

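Potassium channel genes were followed through the mouse brain from embryonic day 14 (E14) to the day of birth (P0) and postnatal day 14 (P14), and through mutants of the LIS1 pathway. The members are all genes whose annotated symbol begins with Kcn followed by a letter. Of 84 such genes among the 18193 genes on the arrays, 67 were kept, those with a highest group mean of at least 5.253, which is the median of all deposited log2 values. The other 17 had highest group means between 3.55 and 5.25. Just inside the threshold lay Kcnn4 at 5.30 and Kcnj6 at 5.35, and just outside it Kcnj12 at 5.25 and Kcnn3 at 5.18. The kept set covers 7 of 7 Kv1, 3 of 3 Kv beta, 3 of 3 Kv3, 3 of 3 Kv4, 4 of 4 KChIP, 3 of 3 Kv7 and 6 of 6 EAG, ERG and ELK genes. It also covers 7 of 9 silent Kv subunits, 3 of 4 BK, 3 of 4 SK and IK, 2 of 2 Slack and Slick, 9 of 15 inward rectifier, 8 of 12 tandem-pore and 3 of 5 Kcne genes. The last 3 of 4 genes in no family include Kcnmb4os2 and Kcnq1ot1, long noncoding RNAs that carry the name of a neighbouring channel gene.

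Total RNA of brain was measured on Affymetrix arrays in 78 samples that the labels call biological replicates, in 26 groups of 3. Wild types came from a mixed background A and a mixed background B at all 3 ages, and from an inbred background, named 129s6 in the titles, at P0 and P14. Lis1 ko/+, Lis1 ko/cko, Ndel1 ko/+ and Ndel1 ko/cko brains were taken at all ages, the genotypes being written as in the labels. Dcx ko/Y brains were taken at E14 and P0, 14-3-3 epsilon ko/ko brains at E14 and, on the inbred background, at P0. Further Ndel1 ko/+ brains came from the inbred background at P0 and from a group labelled as mixed background at P14. The sources used here name no Cre driver for the cko allele, do not tie the other mutants to mixed A or B, and do not say which brain regions were taken. Lis1 (Pafah1b1) and Ndel1 encode partners that regulate the motor dynein, 14-3-3 epsilon (Ywhae) binds phosphorylated NDEL1, and Dcx encodes a microtubule protein of migrating neurons. P-values below measure the spread between these samples.

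Potassium channels let K+ leave the cell, which holds the resting membrane potential near the potassium equilibrium and ends each action potential. Kv1 to Kv4, Kv7 and the EAG, ERG and ELK channels open on depolarization. Kv beta, KChIP and Kcne proteins are auxiliary subunits, and silent Kv subunits form channels only together with other Kv subunits. BK and SK channels respond to calcium, Slack and Slick to sodium. Inward rectifiers and tandem-pore channels set the resting potential, in glia as well as in neurons. Many of these channels are known to be made late, as neurons mature.

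All 8 neuronal markers (among them Snap25, Syt1 and Rbfox3) lay above the median of all values in each of the 26 groups. The targeted gene was not lower than in wild types in inbred Ndel1 ko/+ at P0 and mix-labelled Ndel1 ko/+ at P14. In E14 Ndel1 ko/cko mean Ndel1 was 9.82, slightly below mixed A (9.90) and mixed B (9.91). For the Lis1 mutants at P0, mean Pafah1b1 (10.01 for ko/+, 10.08 for ko/cko) lay below mixed A (10.51) but not below mixed B (9.95). In the library labelled E14 14-3-3 epsilon ko/ko replicate 3, Ywhae was at 9.97, but replicates 1 and 2 kept it at 12.7 and 12.9. Xist, an RNA of female cells, was at 11.3 in the second P0 library labelled Dcx ko/Y. Along the first principal component, 18 P0 arrays lay on the side of mixed A and 12 on that of mixed B (the mixed B wild types, the Dcx ko/Y mutants and both mixed-background Ndel1 mutants). The gap between 3' and 5' actin control probe sets, a measure of RNA integrity and labelling, was 0.122 to 0.214 log2 on the former and 0.274 to 0.449 on the latter. At P14, 15 arrays lay on the mixed A side and 9 on the mixed B side (mixed B and both Ndel1 mutants), with gaps of 0.497 to 0.956 and 0.627 to 0.717.

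Between E14 and P0, 31 of the 67 channel genes changed in both mixed wild types, 26 upward and 5 downward (65 were tested). The Kv7 gene Kcnq5, the leak channel gene Kcnk1, the silent subunit gene Kcns2, Kcnab1 and Kcna6 rose most, while Kcne2, Kcnh8 and Kcnj13 fell most. Of the 26 genes that rose, 17 had reached the median of all values in both mixed wild types at E14, and the others, among them Kcnq5, Kcns2 and Kcna6, came from below it in at least 1 of them. Over all 12864 genes tested, limma called 49.8% in this step, 14.8% higher and 35% lower. Values were normalized within each age, so changes between ages are given on the log2 scale relative to the median gene, which fell by 0.19 here. The tests, adjusted p-values and calls between ages, also in inbred brains, used the changes before this shift. The counts of rises and falls therefore include the shift of the median gene. The median channel gene stood 0.515 above it. In these bulk samples, fewer cells of a type and less RNA per cell cannot be told apart.

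Kcnq5 encodes a Kv7 subunit that contributes to the M current, which limits repetitive firing. Its level was 4.87, 5.32 and 5.68 in mixed A and 5.01, 5.39 and 5.20 in mixed B at E14, against 7.74, 7.41 and 6.92 and 7.53, 7.42 and 7.43 at P0. No P0 array overlapped an E14 array, and the rise was 2.35 (SE 0.174, adjusted p = 1.35e-09 by limma), or 5.11-fold. Of the other Kv7 genes, Kcnq3 (0.10 in this step) and Kcnq1 (0.56) did not pass the test before birth. Kcnk1 (TWIK1), a tandem-pore leak channel, read 6.72, 6.69 and 6.55 in mixed A and 6.78, 6.86 and 6.66 in mixed B at E14. At P0 it read 9.0, 8.91 and 8.59 in mixed A and 8.42, 8.43 and 8.56 in mixed B, a rise of 2.13 (SE 0.0949, adjusted p = 2.04e-12) with no overlap. Kcnk2 (TREK1) rose by 0.93 and Kcnk3 (TASK1) by 1.02 in the same interval, and neither passed the test after birth (-0.06 and -0.05).

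Kv4 channels with their KChIP subunits carry an A-type current, which delays firing after a depolarization. Of the 3 Kv4 genes Kcnd2 (1.10) and Kcnd1 (0.68) rose and Kcnd3 (0.09) did not pass the test, and of the 4 KChIP genes Kcnip4 (1.41) and Kcnip2 (1.33) rose and Kcnip1 (0.50) and Kcnip3 (0.40) did not pass. Kcna4 (0.01), an A-type gene of the Kv1 family, did not pass either. All 3 BK genes rose: the pore gene Kcnma1 by 1.05 and the auxiliary genes Kcnmb4 by 1.29 and Kcnmb2 by 0.88. All 3 Kv3 genes, which encode channels of fast-spiking neurons, rose by 0.65 to 0.85. Of the silent subunits 4 of 7 rose, with Kcns2 at 1.87, Kcns1 at 1.20 and Kcnf1 at 1.16. Kcns1 lay below the median of all values at both ages and was tested only because of its P14 level. Kcnv1 rose by 1.08, Kcna6 (Kv1.6) by 1.55, Kcnab1 (Kv beta 1) by 1.58, Kcnh1 (EAG1) by 1.29 and the sodium-gated Kcnt1 (Slack) by 1.02. Neither SK gene tested, Kcnn1 (-0.23) and Kcnn2 (-0.20), passed.

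Kcnh8, an ELK channel gene, fell at both steps. In mixed A its level was 6.73, 6.75 and 6.57 at E14, 5.22, 5.14 and 4.96 at P0 and 4.28, 3.97 and 4.25 at P14. In mixed B it was 6.63, 6.63 and 6.52, then 5.56, 5.41 and 5.37, then 4.48, 4.61 and 4.43, so the 3 ages did not overlap. It dropped by 1.17 before and by 1.07 after birth (adjusted p = 8.69e-09 and 9.62e-08). Kcne2 and Kcnj13 are known from the choroid plexus, the epithelium that makes cerebrospinal fluid. Kcne2 read 6.76 to 7.82 at E14, 5.63 to 6.96 at P0 and 4.01 to 4.52 at P14 over the mixed wild types. Its falls were 1.18 (adjusted p = 0.00434) and 2.02 (1.00e-05), and Kcnj13 fell by 0.69 before birth and did not pass after it (-0.23). Choroid plexus markers fell in 1 of 5 tested before birth and in 4 of 5 after it. Their part in the result was not tested.

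Several calls of this step were lost under other settings. With quantile normalization over all arrays the falls of Kcnj13 (adjusted p = 0.111), Kcnk4 (0.302) and Kcnk13 (0.432) were no longer called, and with 1 fit over all 78 arrays the fall of Kcne2 was not (0.163). The falls of Kcnj13, Kcnk4 and Kcnk13 and the rise of Kcns1 were also lost when 1 of several wild-type arrays was left out. The rise of Kcnip4 was not called when all probe sets of a gene were averaged (0.0656) or with the replicate number as a block (0.473). In 7 of 32 members with further probe sets above the median, one of these moved the other way (Kcnc1, Kcnd3, Kcnk10, Kcnma1, Kcnn1, Kcnq1ot1 and Kcnt1).

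**Figure D1:**
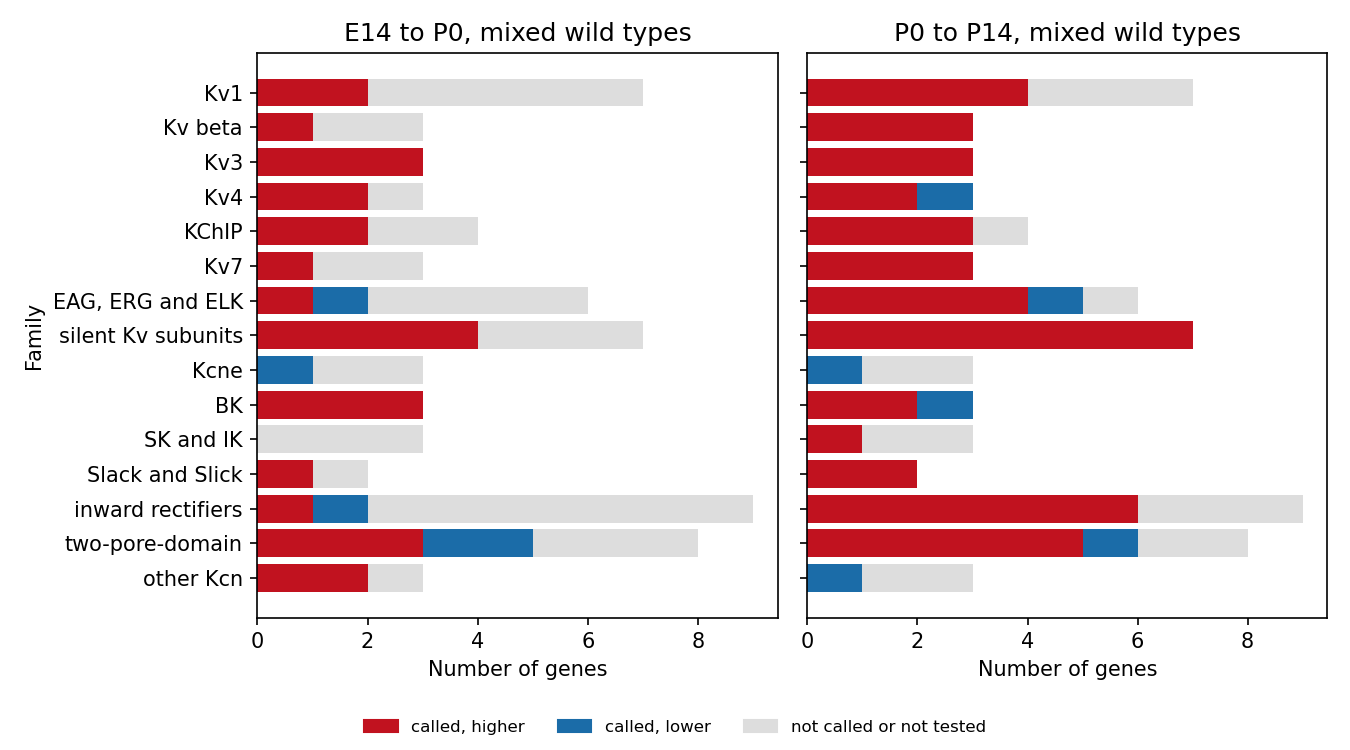
Number of potassium channel genes per family that rose (red), fell (blue) or were not called or not tested (grey) from E14 to P0 (left) and from P0 to P14 (right) in both mixed wild types. Before birth 26 genes rose and 5 fell. After birth 45 rose and 6 fell by call, and all 7 silent Kv subunits and all 3 Kv7, Kv3 and Kv beta genes were called higher. Of these families, Kcnab3, Kcng2, Kcnq1, Kcns1 and Kcns3 came from below the median of all values.

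From P0 to P14 more genes were called higher than before birth, again in tests of the changes before the shift by the median gene. In both mixed wild types 51 of the 67 genes changed, 45 upward and 6 downward, against 56.4% of all genes tested (34.3% higher and 22.1% lower). The median channel gene rose by 1.22 where the median of all genes was 0.131, a difference of 1.09. The largest rises belonged to inward rectifiers and axonal Kv1 genes: Kcnj9 by 4.66, Kcna1 by 3.39, Kcnj4 by 3.33, Kcna2 by 2.95 and Kcnj10 by 2.72. Of the 45 genes that rose, 29 had already reached the median of all values at P0 in both mixed wild types, and the others, such as Kcnj9, Kcnj4, Kcnj16, Kcnt2 and Kcna4, came from below it in at least 1 of them. Among these, Kcnj9, Kcnj4, Kcnj16, Kcnab3, Kcnh5, Kcnk4, Kcnk6, Kcnq1, Kcns1 and Kcnt2 lay below it in all wild types at E14 and P0. Only their P14 level brought them into the test, so their calls are no added support for the rise. Kcng2, Kcnh7, Kcnk12 and Kcns3 lay below it in both mixed wild types at E14 and P0. A total of 40 members reached it in both mixed wild types at E14, 46 at P0 and 59 at P14.

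Kcnj9 encodes GIRK3, a subunit of the inward rectifiers that G protein-coupled receptors open to silence neurons. In mixed A it read 4.24, 4.14 and 3.87 at P0 and 9.17, 9.65 and 9.66 at P14, and in inbred brains 4.08, 4.14 and 5.01 and then 9.61, 9.49 and 9.52. In mixed B it read 4.54, 4.89 and 4.46 at P0 but 8.99, 7.83 and 9.59 at P14, where replicate 2 stood apart. At E14 all 6 arrays lay between 3.84 and 4.25, so the gene was near the bottom of the scale until birth. Its change before birth did not pass the test (0.51, adjusted p = 0.925 by limma), though the mixed B arrays at P0 lay above all E14 arrays. The rise after birth was 4.66 on the log2 scale (SE 0.29, adjusted p = 2.00e-11). Kcnj9 and Kcnj4 lay below the median of all values at E14 and P0 and were tested only because of their P14 level. Their adjusted p-values are therefore no added support for the rise, and no exact fold is given for them. Kcnj4 (Kir2.3), a strong inward rectifier of forebrain neurons, read 4.36, 4.67 and 4.49 in mixed A and 4.46, 4.62 and 4.86 in mixed B at P0. At P14 it read 8.66, 8.36 and 8.40 in mixed A but 7.57, 7.68 and 7.54 in mixed B, a rise of 3.33 (adjusted p = 4.52e-15) in which the backgrounds no longer overlapped. The GIRK1 gene Kcnj3 rose by 2.13.

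Kcnj10 (Kir4.1), the channel by which astrocytes and oligodendrocytes clear extracellular potassium, rose by 2.72 on the log2 scale, and Kcnj16 (Kir5.1), with which it forms heteromers, by 2.33. Kcnj10 read 5.99 to 6.62 over the 6 mixed arrays at P0 and 8.86 to 9.66 at P14. In the same step 8 of 9 astrocyte and 7 of 7 oligodendrocyte markers rose, and the mean astrocyte marker level went from 8.43 to 8.61 in mixed A at P0 to 10.6 to 10.7 at P14. Neuronal markers rose in 6 of 8 cases with 1 falling, microglial markers in 7 of 7, and cycling markers fell in 6 of 7. Their part in the result was not tested.

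Kcnj9 and Kcnj10 are neighbours on chromosome 1, and both rose after birth. Their promoters and that of Kcnj4 on chromosome 15 are shown as the start regions of the inward rectifier genes that rose most. RefSeq promoters of GRCm38.p6 matched 51 of the 67 members, and each line gives the 250 bases before the annotated gene start, read along the gene's strand. Kcnj9 lies at chr1:172329323-172329572 (minus strand), Kcnj10 at chr1:172340960-172341209 (plus strand) and Kcnj4 at chr15:79505242-79505491 (minus strand). Capitals mark TATAAA or GGGCGG, the letters of a TATA box and a GC box, on either strand (TTTATA and CCGCCC on the other), and these motifs do not overlap each other.
Kcnj9: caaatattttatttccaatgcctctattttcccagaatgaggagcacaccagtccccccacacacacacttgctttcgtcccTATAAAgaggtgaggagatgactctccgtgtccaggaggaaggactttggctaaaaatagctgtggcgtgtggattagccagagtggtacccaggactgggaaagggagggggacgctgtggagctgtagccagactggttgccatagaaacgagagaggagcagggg
Kcnj10: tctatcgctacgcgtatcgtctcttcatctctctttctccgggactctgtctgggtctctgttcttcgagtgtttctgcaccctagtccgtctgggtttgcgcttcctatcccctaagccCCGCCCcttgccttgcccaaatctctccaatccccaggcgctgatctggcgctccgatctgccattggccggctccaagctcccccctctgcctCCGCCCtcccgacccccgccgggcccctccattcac
Kcnj4: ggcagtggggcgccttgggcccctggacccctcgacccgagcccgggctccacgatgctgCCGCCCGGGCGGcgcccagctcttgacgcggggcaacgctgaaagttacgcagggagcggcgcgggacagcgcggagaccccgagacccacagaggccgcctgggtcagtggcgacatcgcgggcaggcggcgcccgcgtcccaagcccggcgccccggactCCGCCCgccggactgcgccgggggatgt
The Kcnj9 promoter holds TATAAA, no GGGCGG and 5 CG dinucleotides, while Kcnj10 holds GGGCGG and 17 CG, and Kcnj4 GGGCGG and 35 CG. TATAAA occurs in 3 of the 51 member promoters (Kcnj9, Kcnj13 and Kcnj16), 5.88%, against 14.3% of 27025 promoters of all genes. GGGCGG occurs in 33 of 51, 64.7%, against 35.4%, and the median promoter has 14 CG among members and 6 among all genes, which include noncoding ones. These matches describe letters in the window and are not measured binding sites.

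Axonal Kv1 channels, which keep conduction faithful at nodes and terminals, rose together with their Kv beta subunits. Kcna1 (Kv1.1) read 6.15, 6.16 and 5.60 in mixed A and 6.19, 6.04 and 6.44 in mixed B at P0, and 9.89, 9.78 and 9.77 and 9.37, 9.49 and 9.39 at P14. Every P14 array lay above every P0 array, a 10.5-fold rise. Kcna2 (Kv1.2) rose 7.73-fold, Kcnab1 by 2.37, Kcnab2 by 2.18 and Kcnab3 by 1.54. All 3 Kv beta genes were thus called higher, Kcnab3 from below the median of all values. Kcna4 (1.68) and Kcna6 (1.12) rose as well, while Kcna3 (0.02), Kcna5 (0.70) and Kcna7 (-0.49) did not pass the test. Kcna3 lies next to Kcna2 and Kcna5 next to Kcna1 in the genome, and in these pairs 1 gene was called and the other was not. Kcna6 also lies next to Kcna1, and both rose.

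All 7 silent subunits were called higher, from Kcnf1 (2.36) and Kcnv1 (2.21) to Kcns3 (0.31). Of these, Kcng2, Kcns1 and Kcns3 came from below the median of all values. Among the A-type genes Kcnip4 (2.33), Kcnip2 (1.77), Kcnip3 (1.46) and Kcnd2 (0.43) rose and Kcnd3 fell by 0.41, and Kcnip1 (-0.19) did not pass. The Kv7 genes Kcnq5 (1.5), Kcnq3 (1.38) and Kcnq1 (0.52) were all called higher, Kcnq1 from below the median of all values. So were Kcnc2 (1.97), Kcnc4 (1.41) and Kcnc1 (0.38) of the Kv3 family. In the EAG family Kcnh5 (2.25), Kcnh1 (2.06), Kcnh7 (0.85) and Kcnh3 (0.63) rose. The sodium-gated Kcnt2 (Slick) rose by 2.72 and Kcnt1 by 1.71. Of the SK genes Kcnn2 (1.21) rose and Kcnn1 (0.24) did not pass.

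Over both steps, 21 genes rose in both, 22 rose only after birth by call, 10 were called in neither, 3 were called higher only before birth, 2 fell in both and 2 fell only after birth. Kcnmb2, which encodes an inactivating BK subunit, rose and then fell. In mixed A it read 6.91, 6.33 and 5.86 at E14, 7.52, 7.21 and 7.06 at P0 and 5.93, 5.97 and 6.04 at P14. In mixed B it read 6.75, 6.82 and 6.80, then 7.43, 7.11 and 7.32, then 6.85, 6.70 and 6.86. P0 was the highest age in both, and the later fall was deeper in mixed A. Kcnu1, a BK relative known from sperm, also rose (0.91) and fell (-0.94). Kcnk4 and Kcnk13, tandem-pore genes, fell before birth and rose by 1.42 and 0.73 after it. Kcnk10 (TREK2) fell by 1.28 only after birth. The later falls of Kcnmb2 (adjusted p = 0.0729) and Kcnd3 (0.0884) were not called with 1 fit over all 78 arrays. That of Kcnmb2 was also lost without mixed B replicate 1 or 3 at P0 or replicate 2 at P14, and that of Kcnd3 without mixed A replicate 2 or 3 at either age.

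**Figure D2:**
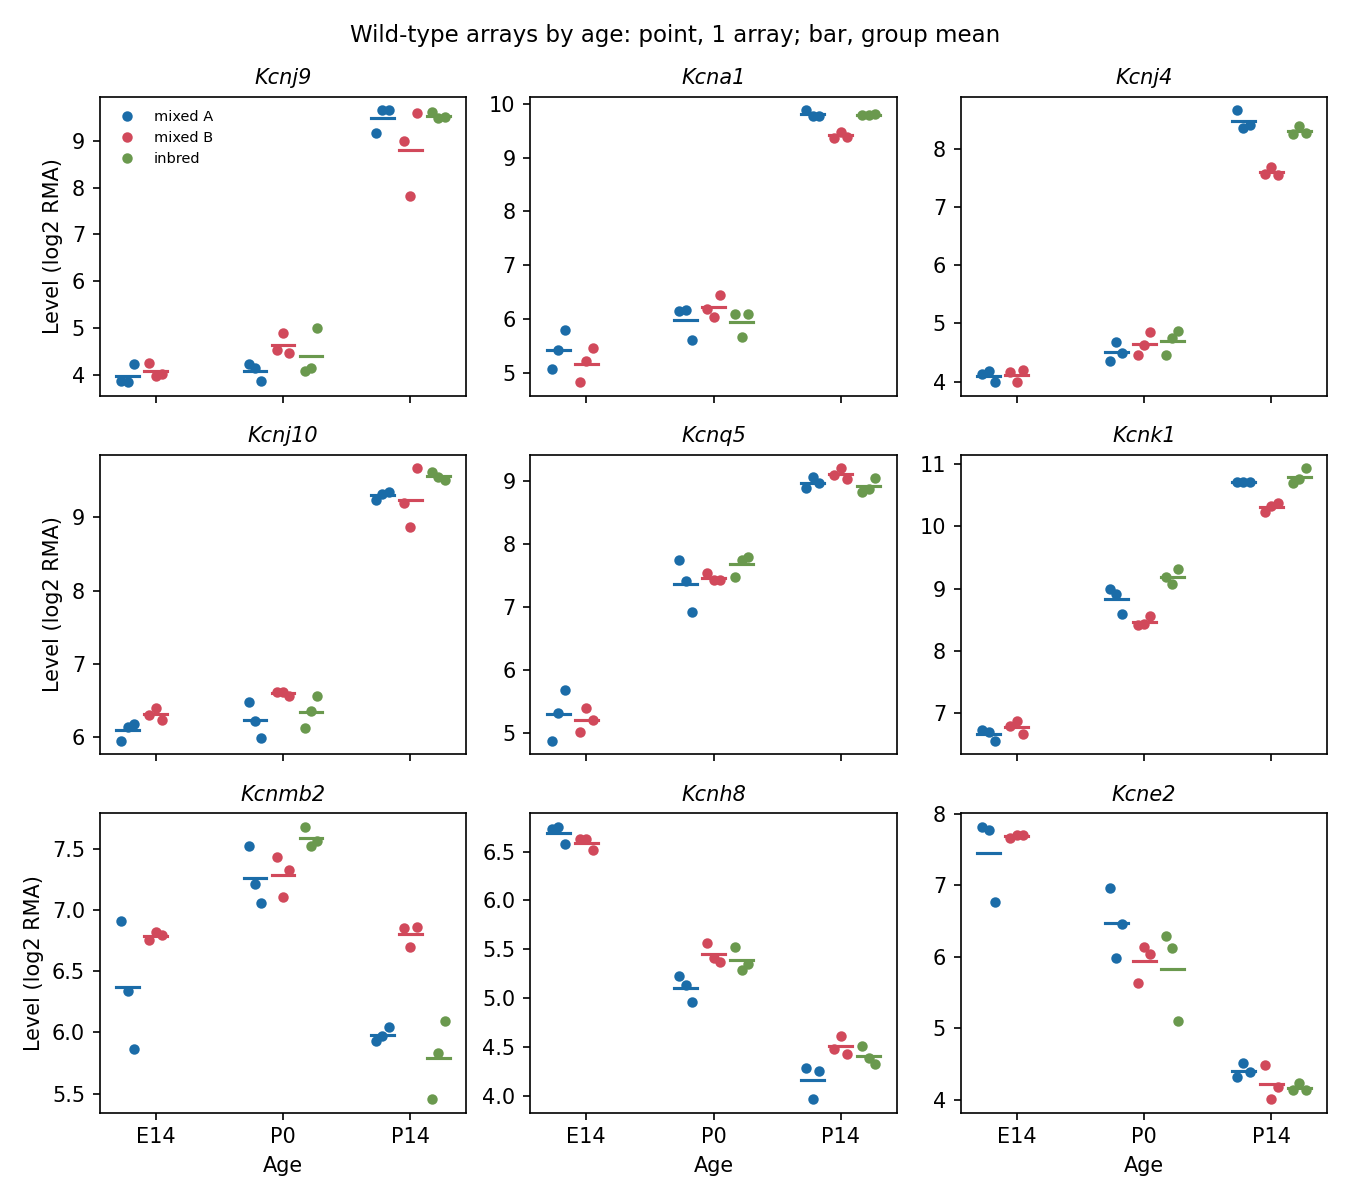
Log2 RMA level of 9 potassium channel genes in the wild-type arrays by age (points, arrays; bars, group means; blue mixed A, red mixed B, green inbred). Kcnj9 and Kcnj4 stay low until P0 and are high at P14, Kcnq5 and Kcnk1 have risen by P0, Kcnmb2 is highest at P0, and Kcnh8 and Kcne2 fall at each age.

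**Figure D3:**
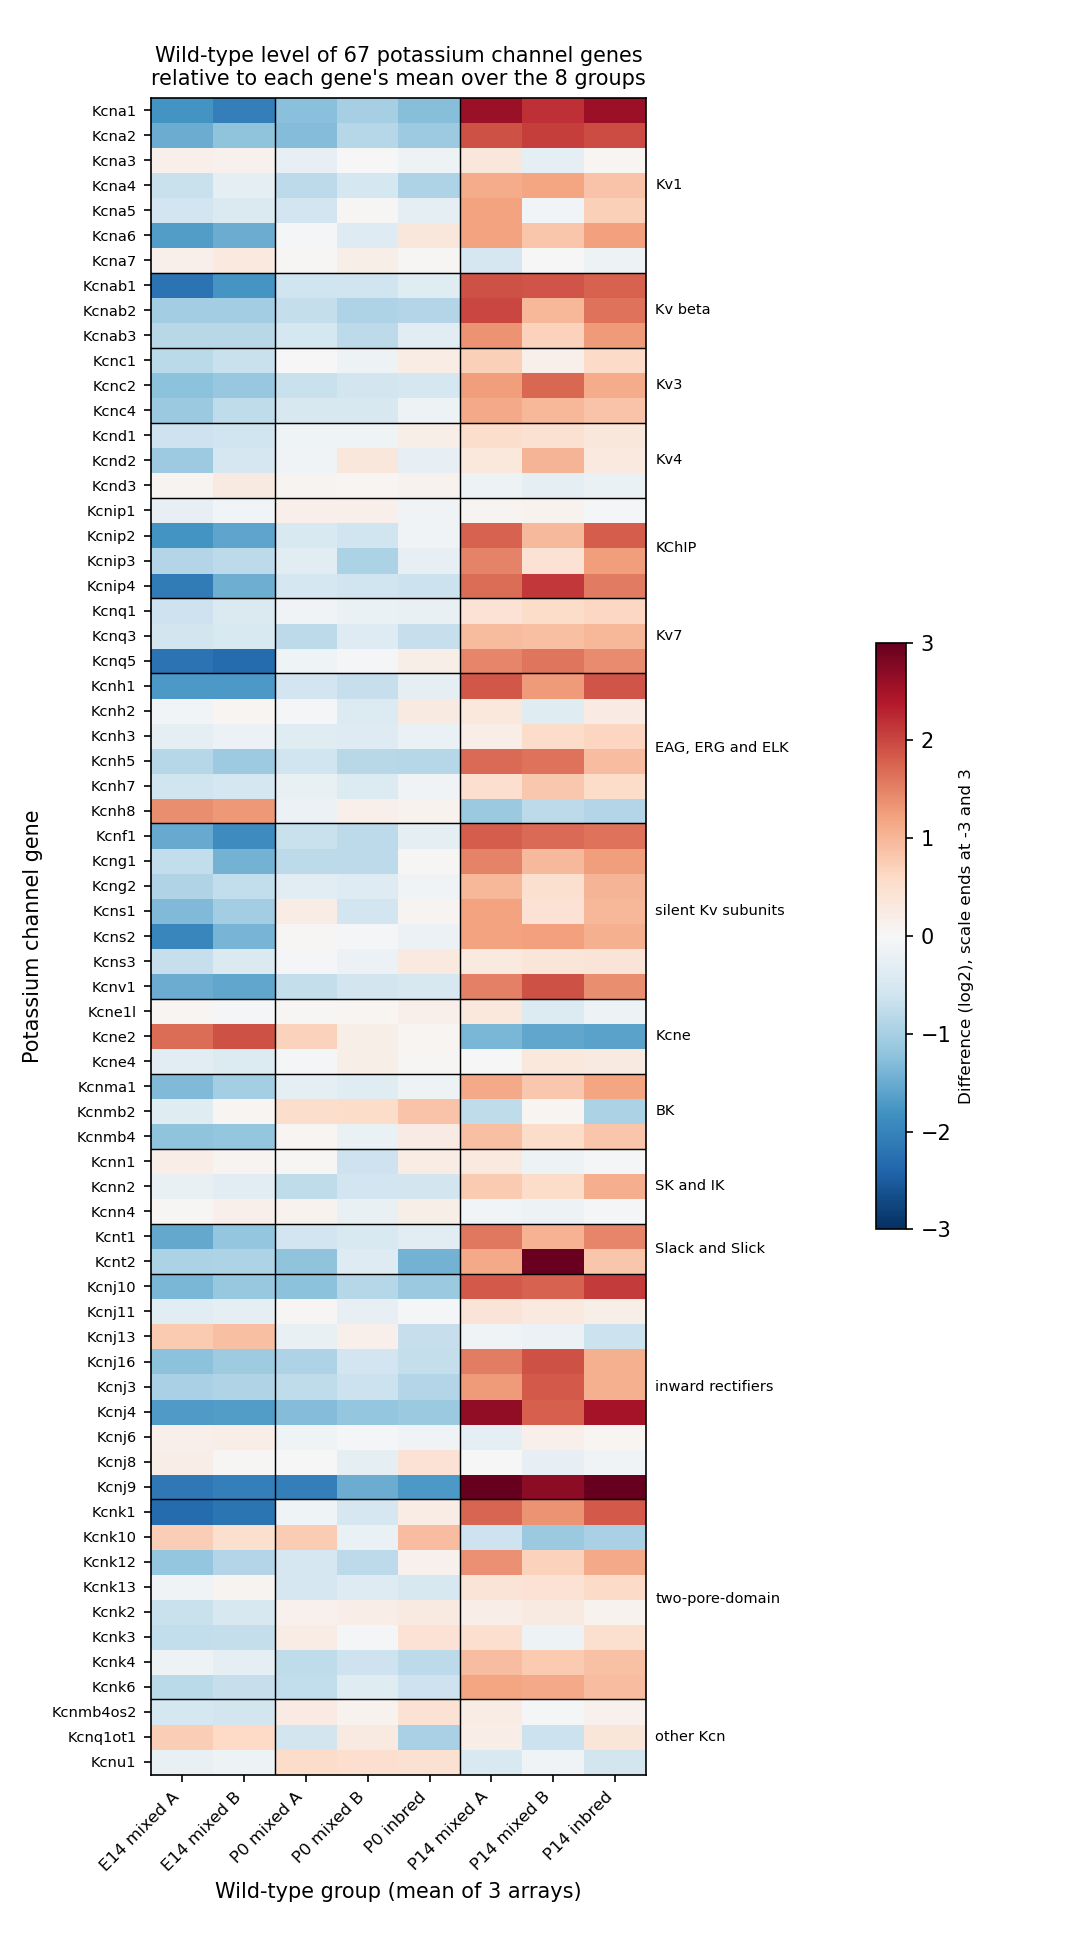
Mean log2 level of each of the 67 potassium channel genes in the 8 wild-type groups, as the difference from that gene's mean over the groups, ordered by family. Most rows turn from blue at E14 and P0 to red at P14, with Kcne2, Kcnh8 and Kcnk10 as exceptions that turn the other way.

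Inbred wild types gave a like picture from P0 to P14. In them 52 members changed, 44 upward and 8 downward, where 71.7% of all genes did (38% higher and 33.8% lower). Of these, 48 changed in the same direction in the mixed wild types, 94.1% of the 51 called there and 92.3% of the 52 called here. Kcnj9 rose by 5.09, Kcna1 by 3.81 and Kcnj4 by 3.56 on the log2 scale in inbred brains. A test of the inbred minus the mixed change, added after these values were seen, called 0 members (1 of 12864 genes, 0.00777%).

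Proteins that bind potassium channels under other gene names were followed from a list of 26, of which 19 were tested. Before birth 8 rose and 2 fell, where 49.8% of all genes were called, and after birth 13 rose and 2 fell, where 56.4% were. Dlg2 (PSD-93), a scaffold that clusters Kv1 channels, rose by 1.95 and 1.34, Lgi1, a secreted protein that acts on Kv1.1, by 1.44 and 1.64, and the Kv4 subunit gene Dpp10 by 1.17 and 1.57. Dlg1 rose by 2.20 and Amigo1, a Kv channel partner, by 1.40 after birth. Cntnap2 (Caspr2) fell by 0.84 and 0.59, and Cntn2 (TAG-1) fell by 2.91 after birth, although both proteins are known to hold Kv1 channels beside the node.

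The wild-type backgrounds themselves differed in channel genes after birth. At E14 mixed A and mixed B differed in 0 of 67 members (4 at unadjusted p under 0.05, 0.0681% of all genes called by limma). At P0 they differed in 10, 6 higher and 4 lower in mixed A (28.7% of all genes), and at P14 in 38, 27 higher and 11 lower (52.7% of all genes). The share of members called was 14.9% at P0, below that of all genes, and 56.7% at P14, near that of all genes. The arrays of the 2 backgrounds lay on opposite sides of the first component at P0 and P14, with the actin gaps given above. Their part in the result was not tested. Without mixed B replicate 1 or 3 the count at P0 was 6.

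Kcnt2 (Slick) was the gene with the largest difference at P14. It read 6.68, 6.67 and 6.69 in mixed A and 8.20, 8.86 and 8.45 in mixed B, a difference of -1.82 (adjusted p = 1.75e-07). The inbred arrays (6.32, 6.07 and 6.71), Lis1 ko/+ (6.0, 6.89 and 6.74), Lis1 ko/cko (6.23, 6.21 and 6.67) and mix-labelled Ndel1 ko/+ (6.66, 6.53 and 6.36) all lay with mixed A. Ndel1 ko/+ (8.24, 8.52 and 8.47) and Ndel1 ko/cko (8.87, 8.42 and 8.46) lay with mixed B, so all 15 arrays of 1 set were below all 9 of the other. At P0 the difference was -0.81 (SE 0.173, adjusted p = 0.00105), but both backgrounds lay below the median of all values there, and the gene was tested only because of its level in Ndel1 ko/+. Other genes lower in mixed A at P14 were Kcnmb2 (-0.82), Kcnd2 (-0.71), Kcnj3 (-0.56), Kcna7 (-0.50) and Kcnc2 (-0.46). Higher in mixed A were Kcna5 (1.27), Kcnip3 (1.05), Kcnab2 (1.00), Kcnj4 (0.88), Kcnq1ot1 (0.83), Kcnip2 (0.79) and Kcns1 (0.78). Kcnj9 (0.69) was called as well, but without mixed B replicate 2 its difference was 0.20 (adjusted p = 0.311).

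At P0 Kcnk10 (0.96), Kcnip3 (0.64) and Kcnn1 (0.64) were higher in mixed A and Kcnd2 (-0.44), Kcnq3 (-0.41) and Kcnj10 (-0.37) lower. The last 3 calls depended on the settings. Kcnq3 was lost in 9 of 12 alternatives (adjusted p up to 0.405), Kcnj10 in 8 of 11 (up to 0.232) and Kcnd2 in 5 of 12 (up to 0.927). Inbred wild types differed from both mixed backgrounds in 1 member at P0, Kcng1, a silent subunit gene (0.82, adjusted p = 0.0285; 1% of all genes were called, 0.747% higher, and 12 members had unadjusted p under 0.05). Kcng1 read 5.60 or more in all inbred arrays and at most 5.48 in the mixed ones, but it was not called without mixed A replicate 3, inbred replicate 2 or 3, or mixed B replicate 1 or 3. Without inbred replicate 1 there were 2, with Kcnip2 (0.48) added. At P14 none was called (2 at unadjusted p, 0.244% of all genes, 0.0407% higher).

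In the mutants, each set against both mixed wild types or, if inbred, the inbred wild type, members were called in 2 of 18 comparisons. At E14 limma called 0 members in any mutant. The counts at unadjusted p under 0.05 were 1 for Lis1 ko/+, 2 for Ndel1 ko/+ and 0 for Lis1 ko/cko, Ndel1 ko/cko, Dcx ko/Y and 14-3-3 epsilon ko/ko. Of all genes, 0.0341% were called in Ndel1 ko/+ (0.017% higher and 0.017% lower), 0.0426% in Dcx ko/Y (0.0341% higher and 0.00852% lower) and 0% in the other 4. Without the arrays of low hindbrain marker level, Lis1 ko/cko keeps only replicate 2 and mixed A only replicate 1, so no count is given. At P0 none was called in Lis1 ko/+ (2 unadjusted, 0% of all genes), Lis1 ko/cko (7, 0.331%), Ndel1 ko/cko (8, 0.84%), Dcx ko/Y (2, 0.0255%), inbred Ndel1 ko/+ (2, 0.255%) and inbred 14-3-3 epsilon ko/ko (4, 0.0255%). At P14 none was called in Lis1 ko/+ (2, 0%), Ndel1 ko/+ (3, 0%), Ndel1 ko/cko (1, 0.0895%) and mix-labelled Ndel1 ko/+ (4, 0.114%).

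The choroid plexus genes varied between single E14 arrays. Kcne2 read 3.60 in Lis1 ko/+ replicate 1 and 3.94 in Lis1 ko/cko replicate 1, but 6.76 to 8.34 in the other 22 arrays of that age. Kcnj13 read 5.15 and 4.87 there against 6.26 to 7.78. In the same arrays Ttr, the choroid plexus transcript for transthyretin, was at 4.30 and 4.0 against 13 to 13.7, and the mean of the choroid plexus list at 4.72 and 4.56 against 7.13 to 8.39. The part of choroid plexus tissue in these values was not tested.

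Ndel1 ko/+ brains at P0 had 7 members higher than both mixed wild types and none lower, where 4.04% of all genes were called (1.43% higher). They span silent subunits, Kv beta, Kv3, an inward rectifier and Slick. Kcnv1, a silent subunit gene, read 7.67, 7.55 and 7.68 in the mutant, 6.75, 6.47 and 6.45 in mixed A and 6.88, 6.65 and 6.65 in mixed B, a difference of 0.99 (adjusted p = 0.00232) without overlap. Its other 2 probe sets above the median were higher too, by 0.617 and 0.911. Kcnt2 read 5.98, 6.07 and 6.11 against 4.45, 4.41 and 4.14 and 5.01, 5.17 and 5.26, above both (1.32, adjusted p = 0.00288). Ndel1 ko/+ was the only P0 group in which Kcnt2 reached the median of all values, so the gene was tested only because it is high there, and its call supports nothing about the group.

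The other genes were Kcng1 (0.83), Kcnf1 (0.74), Kcnab1 (0.69), Kcnj3 (0.67) and Kcnc2 (0.60). Kcnj3 (GIRK1) read 6.95, 7.12 and 6.86 in the mutant, above all mixed arrays (6.01 to 6.48), and Kcnab1 read 7.96, 8.01 and 7.83, above a range of 6.90 to 7.43. The second probe set of Kcnf1 did not follow (-0.079), and with the mean of probe sets Kcnf1 (adjusted p = 0.687) and Kcnj3 (0.20) were not called. Against mixed B alone, which shares a side of the first component with Ndel1 ko/+, 7 members were called, all higher, where 9.47% of all genes were called. Without mixed A replicate 3 the count was 4. Kcnc2 was lost in 8 of 16 alternatives (adjusted p up to 0.223). In the same comparison 3 of 5 choroid plexus markers fell (median -1.36), 1 of 8 astrocyte markers fell and none of 8 neuronal markers was called. The mean choroid plexus level was 6.07 to 6.38 in Ndel1 ko/+, 7.11 to 7.47 in mixed A and 7.15 to 7.56 in mixed B. Its part in the result was not tested.

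**Figure D4:**
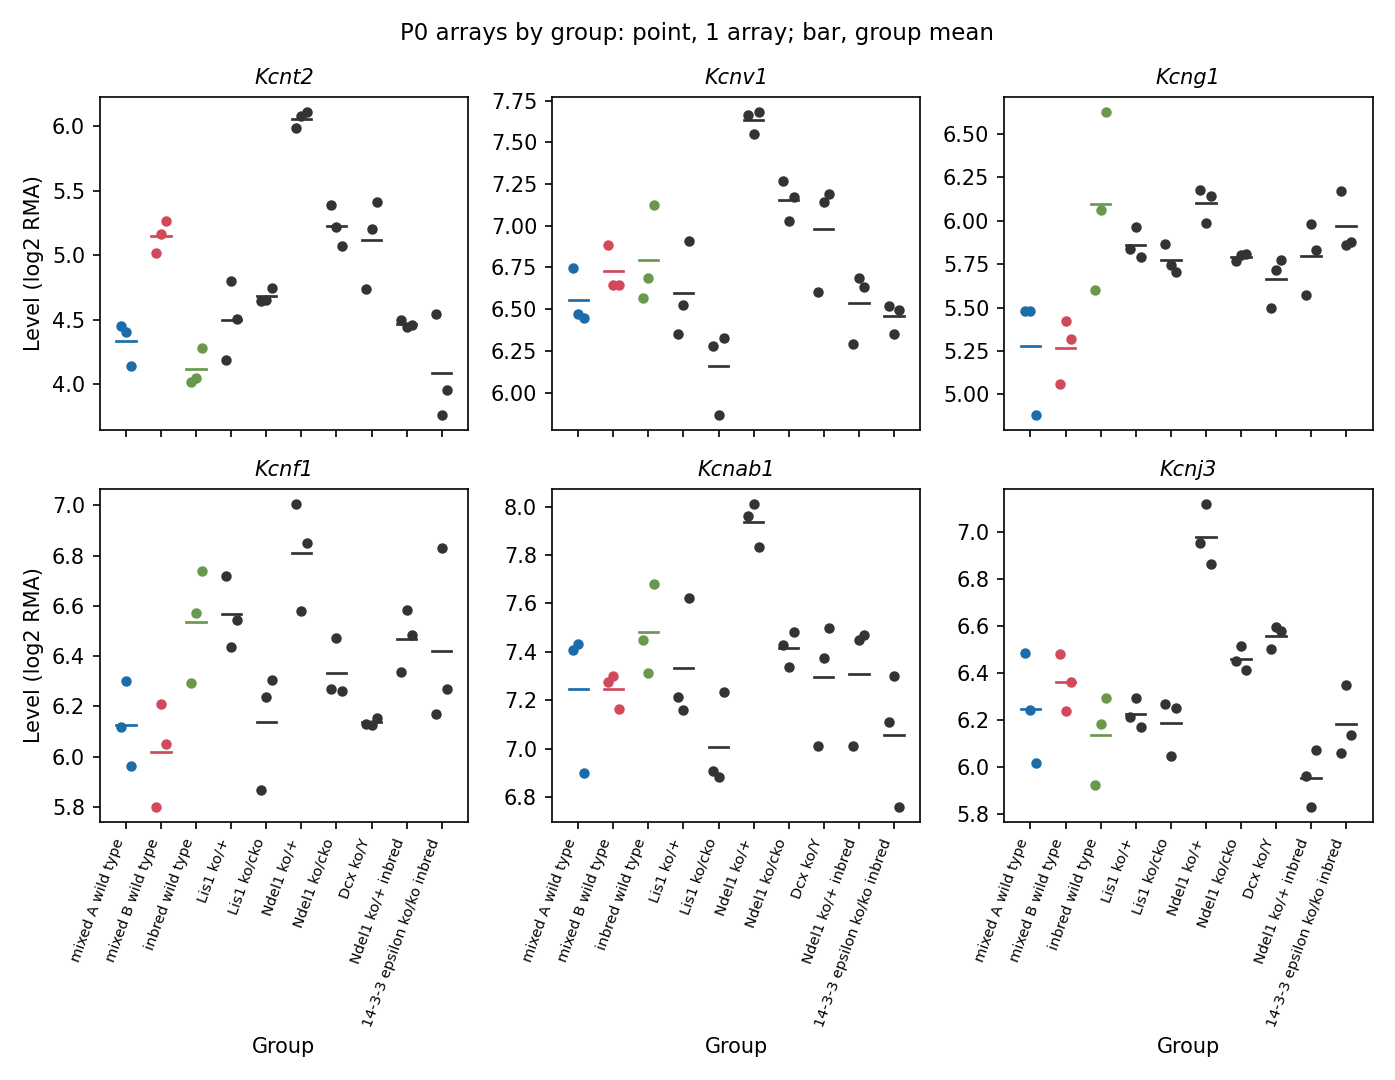
Log2 RMA level of 6 potassium channel genes in all 10 groups at P0 (points, arrays; bars, group means; blue mixed A, red mixed B, green inbred wild type, black mutants). Ndel1 ko/+ is the highest group for Kcnt2, Kcnv1, Kcnab1 and Kcnj3, and Ndel1 ko/cko is closer to mixed B than to Ndel1 ko/+ for Kcnt2 and Kcnj3.

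Ndel1 ko/cko brains at P0 were lower than Ndel1 ko/+ in 7 members and higher in none (9.13% of all genes called, 3.21% lower). These were Kcnt2 (-0.83), Kcnip4 (-0.73), Kcnc4 (-0.52), Kcnab1 (-0.52), Kcnj3 (-0.52), Kcnd2 (-0.48) and Kcnip2 (-0.30). Mean Ndel1 was 9.56 in ko/cko and 9.33 in ko/+, so ko/cko did not have the lower level of the targeted RNA. Kcnt2 was again tested only through its level in Ndel1 ko/+. Kcnab1 was lost in 10 of 12 alternatives (adjusted p up to 0.141) and Kcnip2 in 9 of 12 (up to 0.174). The comparison shares the Ndel1 ko/+ arrays with the one above. Kcnj3 read 6.45, 6.51 and 6.41 in Ndel1 ko/cko, below 6.86 to 7.12 in Ndel1 ko/+, but with the mean of probe sets it was not called (adjusted p = 0.407). Leaving out any 1 of the 6 arrays brought the count to between 2 and 4. In this comparison 3 of 8 neuronal markers fell and 1 rose, and 3 of 8 astrocyte markers fell. Their part in the result was not tested. Lis1 ko/cko and ko/+ differed in 0 members at P0 (12 at unadjusted p, 0.569% of all genes) and 0 at E14 (2, 0.0426%), where Kcnj8 (0.90) was called without ko/cko replicate 1. The Ndel1 groups differed in 0 at E14 (3, 0.128%).

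In Lis1 ko/cko brains at P14, 6 members differed from both mixed wild types, 3 higher and 3 lower, at a background of 6.32% of all genes. Kcnv1 read 7.53, 7.18 and 8.59 against 8.91, 8.66 and 8.75 in mixed A and 9.04, 9.23 and 9.27 in mixed B, a fall of -1.21 (adjusted p = 0.00815). Replicate 3 lay just below the mixed A arrays and the other two well below, and both other probe sets of Kcnv1 were lower (-0.654 and -0.667). Kcna4 (Kv1.4), an A-type channel gene of axons, read 5.76, 5.62 and 6.40 against 6.68 to 6.93 (-0.87, adjusted p = 0.00922), and the silent subunit gene Kcns3 5.02, 4.98 and 5.14 against 5.31 to 5.76 (-0.52, adjusted p = 0.0395).

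Higher in Lis1 ko/cko were Kcnj4, Kcnc1 and Kcna1. Kcnj4 read 9.08, 9.22 and 8.68 against 8.66, 8.36 and 8.40 in mixed A and 7.54 to 7.68 in mixed B (0.96, adjusted p = 0.0244), so replicate 3 was only just above mixed A. Kcnc1 (Kv3.1) read 8.85, 8.90 and 8.61 against at most 8.43 (0.69, adjusted p = 0.0204), and Kcna1 10.15, 10.36 and 10.04 against at most 9.89 (0.56, adjusted p = 0.0152). Their other probe sets did not move alike: 1 of 3 for Kcnc1 (-0.472) and 1 of 2 for Kcna1 (-0.271) went down, and neither gene was called with the mean of probe sets (adjusted p = 0.375 and 1). The 6 calls became 0 without Lis1 ko/cko replicate 1 or 2 and 2 without mixed A replicate 2 or 3. Against mixed A alone, which shares a side of the first component with Lis1 ko/cko, 11 members were called, where 13.9% of all genes were. Kcns3 was lost in 8 of 15 alternatives (adjusted p up to 0.219). Neuronal markers were called in 0 of 8, astrocyte markers rose in 2 of 9 and cycling markers fell in 3 of 3. Their part in the result was not tested.

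Lis1 ko/cko and ko/+ at P14, 2 groups that share a side of the first component, differed in 8 members, 3 higher and 5 lower in ko/cko (8.02% of all genes). Mean Pafah1b1 was 10.36 in ko/cko and 10.21 in ko/+, so ko/cko did not have the lower level of the targeted RNA. Kcnk6 (0.69), a tandem-pore gene, Kcnc1 (0.43) and Kcna1 (0.31) were higher. Kcnj9 (-1.55, SE 0.243, adjusted p = 0.00362), Kcnv1 (-0.92), Kcna4 (-0.64), Kcns3 (-0.54) and Kcne1l (-0.50) were lower. With the mean of probe sets Kcnc1 (adjusted p = 0.614) and Kcna1 (0.365) were not called. The count was 1 (Kcnj9) without ko/cko replicate 1 or 2, 15 without ko/cko replicate 3 and 4 without ko/+ replicate 2 or 3. Without replicate 3 of ko/cko, Kcnv1 was lower by -1.33 (adjusted p = 1.35e-07). Oligodendrocyte markers fell in 4 of 7 and microglial markers rose in 3 of 7 in this comparison. Their part in the result was not tested.

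Kcnj9 (GIRK3) set P14 groups apart that share no genotype. It read 7.96, 7.91 and 8.36 in Lis1 ko/cko and 7.76, 7.89 and 7.97 in Ndel1 ko/+. In Lis1 ko/+ it read 9.44, 9.68 and 9.77, in Ndel1 ko/cko 9.56, 9.43 and 9.59 and in mix-labelled Ndel1 ko/+ 9.72, 9.57 and 9.62. The wild types lay with the latter (9.17 to 9.66) except mixed B, whose replicate 2 was at 7.83 and replicate 1 at 8.99. Ndel1 ko/cko thus exceeded ko/+ by 1.65 (adjusted p = 0.00117), where Lis1 ko/cko was below ko/+.

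That Ndel1 comparison called 2 members (0.309% of all genes), Kcnj9 and Kcnab2 (0.85, adjusted p = 0.00994), and 1 without Ndel1 ko/+ replicate 2 or ko/cko replicate 3. Mean Ndel1 itself was 10.00 in ko/cko and 10.01 in ko/+. A test of the Lis1 minus the Ndel1 difference, added after these values were seen, gave -3.20 for Kcnj9 (SE 0.344, adjusted p = 1.44e-05) and 0.70 for Kcnc1 (SE 0.144, adjusted p = 0.0313), with 0.545% of all genes called. Against both mixed wild types Kcnj9 was not called in Ndel1 ko/+ (-1.27, adjusted p = 1), but without mixed B replicate 2 it was lower by -1.52 (SE 0.158, adjusted p = 8.52e-05). That wild-type array itself read low (7.83), so leaving it out favours this outcome, which is no added support for a difference.

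Kcnj9 has 3 further probe sets, and they did not all follow. One of them read 5.83, 5.84 and 6.44 in Lis1 ko/cko, 5.53, 5.63 and 5.43 in Ndel1 ko/+ and 5.95, 5.33 and 6.50 in mixed B, and 6.14 to 7.29 in all other P14 arrays. Another read 7.32, 7.29 and 8.69 in Lis1 ko/cko and 7.69, 7.68 and 7.67 in Lis1 ko/+, so it did not separate these groups. Between the Ndel1 groups this probe set went the other way, with 7.86, 7.79 and 7.92 in ko/+ and 7.10, 7.15 and 7.37 in ko/cko. Of the 3 further probe sets, 2 were opposite to the chosen one in that Ndel1 comparison. With the mean of all probe sets the Ndel1 difference of Kcnj9 was 0.39 (adjusted p = 0.311), and that of Kcnab2 was not called (0.0708).

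**Figure D5:**
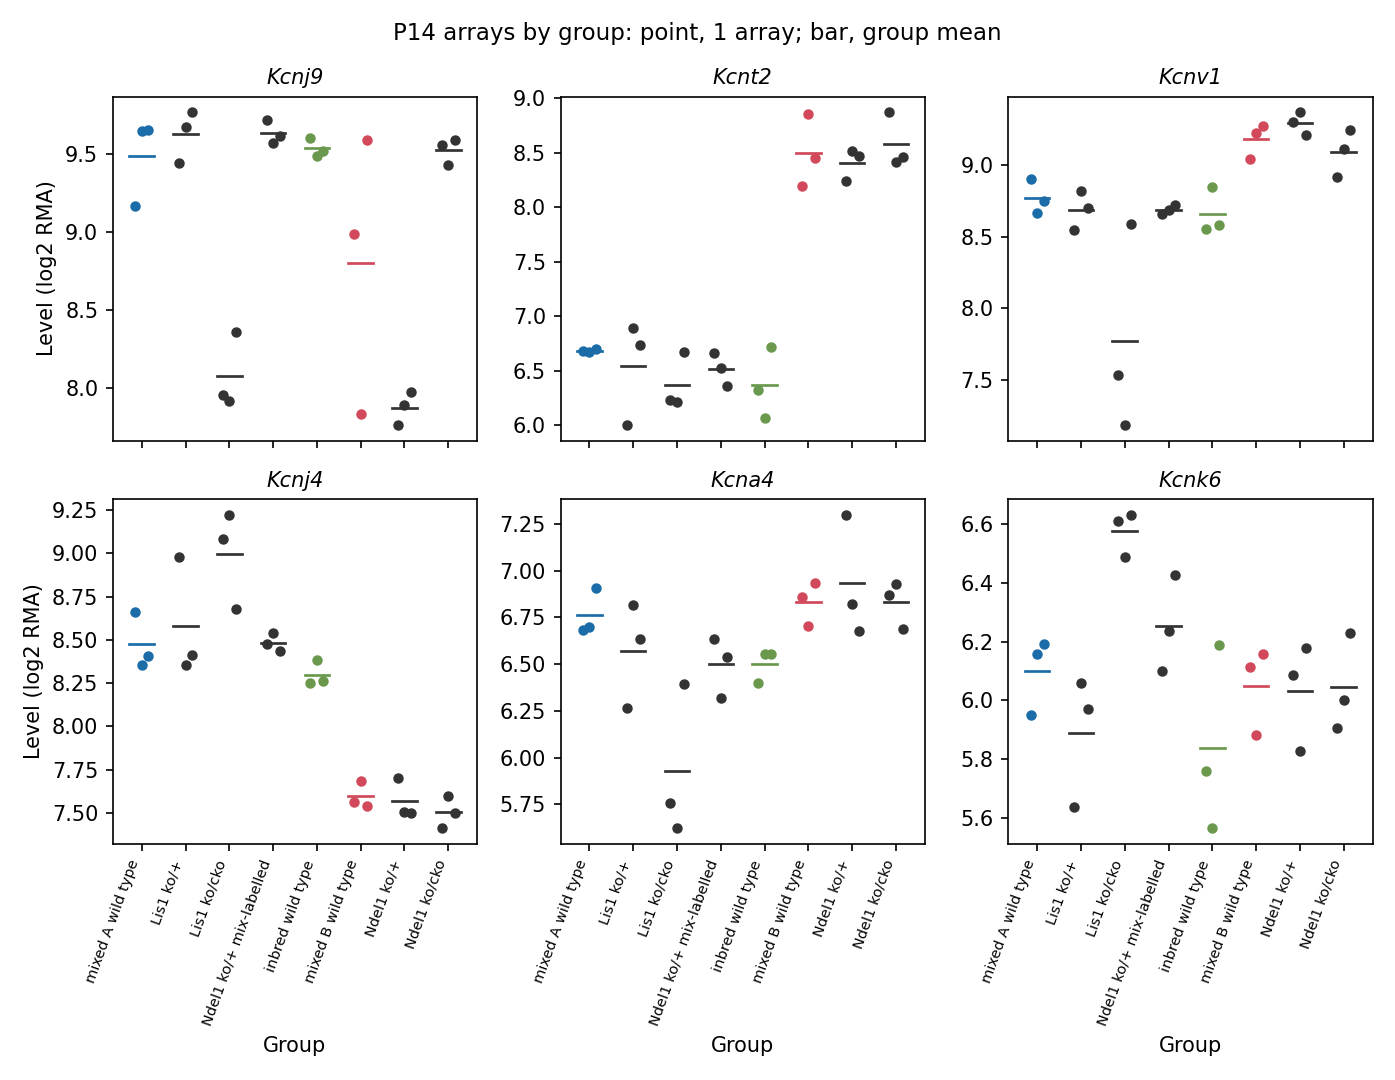
Log2 RMA level of 6 potassium channel genes in all 8 groups at P14 (points, arrays; bars, group means; blue mixed A, red mixed B, green inbred wild type, black mutants). Kcnj9 is low in Lis1 ko/cko, Ndel1 ko/+ and mixed B replicate 2, Kcnt2 splits 15 arrays from 9, and Kcnv1 and Kcna4 are lowest in Lis1 ko/cko.

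The change of Lis1 ko/cko from P0 to P14 differed from that of wild types in 0 members (11 at unadjusted p, lowest adjusted p = 0.0714, 2.87% of all genes), and that of Ndel1 ko/cko in 0 (1 at unadjusted p, lowest adjusted p = 0.975, 0.046%). Of the genes followed over the 18 mutant comparisons, Kcna1 and Kcnc1 were each called in 1, Lis1 ko/cko at P14. Kcnk1 ranged from -0.21 to 0.44, Kcnma1 from -0.23 to 0.29, Kcnq5 from -0.20 to 0.37, Kcna2 from -0.23 to 0.51, Kcnj10 from -0.49 to 0.37 and Kcnd2 from -0.59 to 0.54, and none of these was called in the 18, which does not show that they did not differ. None of the 19 partner genes was called in Ndel1 ko/+ at P0 or in Lis1 ko/cko at P14.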

How the data were processed

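The deposited values are log2 RMA values of 45101 probe sets on 78 arrays, per the submitters' processing notes, which name RMA without a version. Probe sets naming 1 gene (34945) were used, the one with the highest mean over all arrays standing for a gene; 932 named several genes, 9160 were not listed with one and 64 were array controls. Sorted columns differed by a root mean square of 0.03424 within and 0.1565 between ages. Linear models (R 4.3.3, limma 3.58.1) with a mean per group and eBayes with trend were fitted per age, over the 24 wild-type arrays for development and over all 78 for interactions. Genes were tested where their highest group mean reached 5.253 and called at Benjamini-Hochberg adjusted p under 0.05 over all tested genes (11743 at E14, 11779 at P0, 12296 at P14). Against both mixed wild types, the p-value is the larger of both if the signs match and 1 otherwise, the change their mean and the SE the larger. Array number limits the precision. Named genes are the called members with the largest changes (up to 15 each way in the mixed steps, 10 elsewhere), the leading member of each family and fixed followed genes. Same-numbered replicates did not deviate together (median r of -0.00154, -0.0137 and 0.0133 by age). The code was tested on simulated data. Members, lists and tests were chosen with earlier results of these data known.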

Additional observations from a re-analysis of the deposited data

Results flagged for a closer look

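For several channel genes the arrays of 2 groups did not overlap at 2 ages and lay in opposite directions. Missing overlap was frequent with 3 arrays per group. Between mixed A and mixed B it held for 10 of 49 tested members at E14, 18 of 56 at P0 and 44 of 64 at P14. Between Ndel1 ko/cko and ko/+ it held for 25 of 56 at P0 and 11 of 64 at P14. The share over all genes is not given, so these pairs do not show a reversal. Given here are the pairs in which limma called 1 of the ages: P14 for Kcnip2, Kcnt1, Kcnq1ot1 and Kcnab2, and P0 for Kcnj3. In all other such pairs, among them Kcnc4 between mixed A and mixed B and Kcnf1 between the Ndel1 groups, neither age was called. Between mixed A and mixed B, Kcnip2 was -0.212 at E14 and 0.788 at P14, Kcnt1 was -0.376 and 0.544, and Kcnq1ot1 was -0.82 at P0 and 0.832 at P14 (log2, mixed A minus mixed B). Between Ndel1 ko/cko and ko/+, Kcnab2 was -0.364 at P0 and 0.846 at P14, and Kcnj3 was -0.518 and 0.322. The difference between the ages was not tested for any of these. The effect of ko/cko against ko/+ at P14 differed between Lis1 and Ndel1 by limma in Kcnj9 (-3.2) and Kcnc1 (0.696). These values come from 1 probe set per gene. Of 3 further probe sets each, 2 went the other way for Kcnj9 in the Ndel1 comparison and 2 for Kcnc1 in the Lis1 comparison.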

How the results depend on the processing

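Results were recomputed without a filter on low values, with a stricter one at 7.627, with the mean of all probe sets, quantile normalization, 1 fit over 78 arrays or a replicate block, against each mixed wild type alone, and with arrays left out. No filter, quantile normalization and the replicate block moved none of the 34 counts of called members by over 1.5 times, and no named gene reversed in any setting. The stricter filter tests fewer genes and gave 31 called in the mixed and 31 in the inbred step from P0 to P14, 5 and 18 for mixed A against B at P0 and P14, 2 for Ndel1 ko/+ at P0, 4 for Lis1 ko/cko against ko/+ at P14 and 4 for Ndel1 ko/cko against ko/+ at P0. With the mean of probe sets the inbred wild type at P0 had 0 and Ndel1 ko/cko against ko/+ at P14 had 1. With 1 fit, mix-labelled Ndel1 ko/+ at P14 and 1 comparison of inbred brains had 1 each. Shares of all genes called under these settings are not given, so the counts are no result about the members.

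With 1 mixed wild type alone, each count is followed by the percentage of all genes called. Against mixed A these were 3 (2.45%) and 1 (4.2%) for the inbred wild type at P0 and P14, 21 (42.9%) for Ndel1 ko/+, 11 (33.8%) for Ndel1 ko/cko and 12 (30%) for Dcx ko/Y at P0, 11 (13.9%) for Lis1 ko/cko, 36 (52.3%) for Ndel1 ko/+ and 32 (52.8%) for Ndel1 ko/cko at P14, and 2 (7.59%) and 10 (15.1%) for the Lis1 and Ndel1 interactions with age. Against mixed B they were 23 (45.4%) and 33 (48.6%) for the inbred wild type, 13 (20.7%) and 16 (32.8%) for Lis1 ko/+ and ko/cko at P0, 38 (52.6%) and 42 (59.7%) at P14, 36 (52.6%) for mix-labelled Ndel1 ko/+ and 24 (27.4%) and 2 (0.835%) for the interactions. The cause was not tested. Without the 6 E14 arrays of low hindbrain marker level, Ndel1 ko/cko against ko/+ had 4. The share of all genes called there is not given, so this count is no result about the members. The mean hindbrain marker level was 5.81 to 6.56 in ko/+ and 4.88 to 5.16 in ko/cko, and its part was not tested. With those 6 arrays left out, Lis1 ko/cko keeps only replicate 2, so no count is given for its comparisons.

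Leaving out 1 array at a time gave 27 to 32 for E14 to P0, 48 to 51 and 51 to 52 for P0 to P14 in mixed and inbred wild types, 6 to 8 and 32 to 35 for mixed A against B at P0 and P14, 0 to 2 for the inbred wild type at P0, 4 to 7 for Ndel1 ko/+ at P0, 0 to 8 for Lis1 ko/cko and 0 to 1 for Ndel1 ko/+ at P14, 0 to 1 and 1 to 15 for Lis1 ko/cko against ko/+ at E14 and P14, 2 to 4 and 1 to 2 for Ndel1 ko/cko against ko/+ at P0 and P14, and 0 to 2 for the Lis1 interaction. All other counts were 0 throughout. Same-numbered replicates share only a number. With the number as a replicate block, the calls of Kcnab1 (adjusted p = 0.0512) and Kcnip2 (0.0502) in Ndel1 ko/cko against ko/+ at P0 were lost, as were 8 others in the wild types; 110 of 120 named calls held. Low signal limits the genes near the median of all values.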
